A study of Rattus norvegicus with 36 samples.

Results

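The genes described here encode the proteins of the mitochondrial ribosome. They were taken as all protein-coding genes of the rat tables whose name begins with Mrpl or Mrps followed by a digit, which gave 75 of the 26142 genes listed, 45 named for the large subunit and 30 for the small one. RNA sequencing had been run on 4 brain regions of rats (Rattus norvegicus) 6 weeks after blast exposure or a sham procedure. The 8 groups were hippocampus from blast-exposed (n = 5) and sham rats (n = 5), amygdala from blast-exposed (n = 5) and sham rats (n = 4), anterior cortex from blast-exposed (n = 3) and sham rats (n = 5), and cerebellum from blast-exposed (n = 5) and sham rats (n = 4). The labels name no strain, age, sex or blast pressure. A blast sends a pressure wave through the head and serves in animals as a model of brain injury by explosions.

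Mitochondria keep a small genome that encodes core subunits of the respiratory chain and of ATP synthase, and a ribosome of their own translates those messages. Its RNAs are made inside the organelle, but all its proteins are encoded in the nucleus, made on cytosolic ribosomes and imported. Some of these proteins have a counterpart in the bacterial ribosome, and others were added in the evolution of mitochondria. Neurons depend on respiration for the ion pumping that follows firing, and defects of mitochondrial translation in humans often affect brain and heart. By these roles, 44 members have a bacterial counterpart and 30 are specific to mitochondria. The remaining member, Mrps36, carries a ribosomal name but is known as Kgd4, a subunit of the alpha-ketoglutarate dehydrogenase complex. Mrps18a and Mrps30 are named for the small subunit, yet their proteins sit in the large one.

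Libraries held 15426786 to 23460322 counts on genes. Summed levels of marker lists fitted the labelled regions, clearly for cerebellum and hippocampus. These sums, and those of marker lists given below, are in CPM as raw counts relative to the library total, without TMM scaling. CPM of individual members, and the members' summed level, are relative to the library total after TMM scaling. The cerebellar list summed to 3679.8 to 4162 CPM in cerebellum and to at most 94.99 CPM elsewhere, and the hippocampal list to 548 to 1114 CPM in hippocampus and at most 502 CPM elsewhere. In blast hippocampus that list reached down to 548 CPM, where sham hippocampus held 956 to 1114 CPM. The cortical list stood at 354 to 497 CPM in anterior cortex, at 203 to 224 CPM in sham amygdala and at 189 to 430.4 CPM in blast amygdala. The amygdalar list stood at 184 to 223 CPM in sham amygdala, at 122 to 221 CPM in blast amygdala and at up to 170.2 CPM in hippocampus, so that both lists separated the sham regions and overlapped between regions after blast. The numbers in the sample titles recur between regions, and nothing in the labels says that each is a separate animal, so p-values here measure only the spread between these libraries. In bulk tissue, fewer cells of a type and less RNA per cell cannot be told apart.

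Of the 75 members, 74 were listed in the 4 regional tables and Mrpl53 in the cerebellar table alone. Mrpl53 and Mrps21l, a 267-base gene named for its likeness to Mrps21, were nearly silent. Mean levels over the 36 libraries were 0.0108 FPKM (fragments scaled by gene length and library size, the authors' values) for Mrpl53 and 0.0838 FPKM for Mrps21l. Neither passed the filter on low counts in any comparison, which left 73 members tested in each. The genes mrpl9, mrpl11 and mrpl24 are written in lower case in the tables, do not match the naming rule and were kept out.

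Most mitoribosomal genes were expressed in all 4 regions, at RNA levels of the same order. The median of the mean levels was 22.0 FPKM over the 73 tested members, with quartiles of 14.2 and 29.1 FPKM, and 67 of the 73 lay above 10 FPKM. The highest was Mrpl33, counterpart of a small bacterial large-subunit protein, at a mean of 105.9 FPKM over all libraries. The FPKM values imply a length of only 195 bases for it, where the deposited length is 236. Without division by length, its median over the 36 libraries was 20.0 CPM, against 57.3 CPM for Mrpl17. The group means of Mrpl33 ran from 84.4 ± 8.20 FPKM (SD, n = 5) in blast cerebellum to 124.8 ± 11.95 FPKM (SD, n = 4) in sham amygdala. Mrpl17, the bacterial L17 counterpart, followed with 60.1 FPKM, then Mrpl54, a protein specific to mitochondria, with 46.9 FPKM, and Mrpl20, the L20 counterpart, with 43.2 FPKM. The lowest tested members were Mrpl1, the L1 counterpart, at 2.27 FPKM and Mrpl47, the L29 counterpart, at 4.35 FPKM. The coefficient of variation between libraries of a group, taken as a member's median over the 8 groups, had a median of 9.43% over members and was under 15% in 71 of 73, though 42 members exceeded 15% in at least 1 group. The exceptions were Mrpl30 at 53.8% and Mrpl1 at 49.8%.

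Blast was compared with sham first as the mean of the 4 regional effects, in the 36 libraries together. With edgeR's quasi-likelihood test and Benjamini-Hochberg adjustment, 0 of 73 members were called at an adjusted p under 0.05, where 15 of all 17120 genes tested, 0.0876%, were called. Of the members, 53 were lower and 20 higher after blast, against 45.6% of all genes lower, and the median log2 fold change was -0.04 for the members and 0.01 for all genes. At an unadjusted p under 0.05 there were 5 members, 4 lower and 1 higher, against 9.78% of all genes. The latter count was 3 without number 1 or 10, 8 without number 6, 9 without number 2 and 10 without number 18. DESeq2 called 0 members and 45 of all genes, 0.263%.

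The 3 members of smallest p in that mean were Mrpl37, Mrpl51 and Mrpl17, and their promoters are shown to place them beside the motifs of regulators that are known to drive nuclear genes of mitochondrial proteins. The windows run from 80 bases before to 30 bases from the RefSeq transcription start (GRCr8), 5′ to 3′ along the gene. Capitals mark matches on either strand to GCGCA and GCGC with any base between them (NRF1), CCGGAAG (GABPA and other ETS factors), AAGATGGCG (YY1) or GGGCGG (SP1). Mrpl37 lay on chr5:127074938-127075047 (minus strand), Mrpl51 on chr4:159677908-159678017 (plus strand) and Mrpl17 on chr1:169575670-169575779 (minus strand).
Mrpl37: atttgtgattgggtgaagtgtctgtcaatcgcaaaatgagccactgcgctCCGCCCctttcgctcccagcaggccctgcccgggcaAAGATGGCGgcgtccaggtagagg
Mrpl51: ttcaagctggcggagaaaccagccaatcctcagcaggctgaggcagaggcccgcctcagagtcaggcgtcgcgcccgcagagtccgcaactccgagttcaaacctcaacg
Mrpl17: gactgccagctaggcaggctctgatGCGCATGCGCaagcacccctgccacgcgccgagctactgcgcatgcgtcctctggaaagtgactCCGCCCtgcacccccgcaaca
Mrpl37 held a YY1 and an SP1 match, Mrpl17 an NRF1 and an SP1 match, and Mrpl51 none of the 4.

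RefSeq promoters of 250 bases before to 50 bases from the start were matched by symbol for 59 of the 75 members, and the motifs were searched in those and in the promoters of 19005 protein-coding genes. YY1 matches lay in 8 of the 59 members, 13.6%, and in 2.33% of all genes. GABPA matches lay in 20 members, 33.9%, against 11.6% of all genes, and NRF1 matches in 9 members, 15.3%, against 6.20%. SP1 matches lay in 29 members, 49.2%, against 44.1%. In 1 member, matches to 2 of the motifs overlapped. A match is only a run of letters in the window, and no binding was measured here.

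Mrps18a, Mrps18b and Mrps18c are paralogs, each a counterpart of bacterial S18, and they were printed because 1 of them was among the members of smallest p in cerebellum. Their windows lay on chr9:22367351-22367460 (minus strand), chr20:2842926-2843035 (plus strand) and chr14:9122877-9122986 (minus strand).
Mrps18a: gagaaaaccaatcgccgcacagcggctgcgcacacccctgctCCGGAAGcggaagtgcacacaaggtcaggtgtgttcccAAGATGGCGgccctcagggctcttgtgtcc
Mrps18b: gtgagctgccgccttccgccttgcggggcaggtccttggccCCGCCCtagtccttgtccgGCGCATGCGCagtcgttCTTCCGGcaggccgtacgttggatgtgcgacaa
Mrps18c: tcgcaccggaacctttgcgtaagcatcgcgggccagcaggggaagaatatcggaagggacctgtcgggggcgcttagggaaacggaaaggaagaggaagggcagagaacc
The windows printed held a GABPA and a YY1 match in Mrps18a, SP1, NRF1 and GABPA matches in Mrps18b, and none in Mrps18c. In the longer window that was searched, all 3 paralogs held SP1 and GABPA matches. Their mean levels over all libraries were 39.2, 34.8 and 14.8 FPKM.

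Mrpl37 (ENSRNOG00000009078; chr5:126650502-126666833 in the deposited coordinates, whose build is not named) encodes a large-subunit protein specific to mitochondria. In hippocampus it stood at 44.9, 48.5, 45.1, 40.9 and 43.7 CPM in the sham libraries and at 42.0, 39.996, 42.6, 38.1 and 36.3 CPM after blast. In amygdala the sham libraries stood at 52.9, 45.9, 47.8 and 40.8 CPM and the blast libraries at 41.4, 40.8, 40.7, 41.1 and 41.7 CPM. Blast libraries lay at the lower end of both regions, and the groups overlapped in each. In anterior cortex the means were 37.4 ± 2.52 CPM (SD, n = 5) in sham and 37.6 ± 3.08 CPM (SD, n = 3) in blast, and in cerebellum 47.7 ± 2.29 (SD, n = 4) and 45.0 ± 1.23 CPM (SD, n = 5). The regional log2 fold changes were therefore -0.16, -0.19, 0.00 and -0.09. Their mean was -0.10 (SE 0.03), with an unadjusted p of 0.00393 and an adjusted p of 0.311 by edgeR's quasi-likelihood test.

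Mrpl51 (ENSRNOG00000019165; chr4:157705790-157708748) encodes another large-subunit protein specific to mitochondria and was the only member higher after blast at an unadjusted p under 0.05 in the mean of the 4 regions. Its hippocampal levels were 34.1, 31.0, 32.0, 31.2 and 36.9 CPM in sham and 34.8, 34.8, 38.0, 41.3 and 33.9 CPM in blast. It was higher in the mean of blast libraries in each region, by 0.15, 0.13, 0.07 and 0.05 on the log2 scale in hippocampus, amygdala, anterior cortex and cerebellum, and the groups overlapped in each. The mean of the regional effects was 0.11 (SE 0.04; edgeR quasi-likelihood, adjusted p = 0.374).

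Mrpl17 (ENSRNOG00000019497; chr1:170652294-170653920) had its widest difference in anterior cortex, with 56.1, 43.7, 45.8, 59.6 and 44.8 CPM in sham and 37.5, 42.9 and 46.3 CPM in blast. The groups overlapped there, and the mean of the regional log2 fold changes was -0.10 (SE 0.04; edgeR quasi-likelihood, adjusted p = 0.440). Mrpl12, counterpart of the bacterial stalk protein that recruits translation factors, followed at -0.09 (SE 0.04), Mrpl47 at -0.16 (SE 0.07) and Mrpl4, the L4 counterpart, at -0.06 (SE 0.03), none past the threshold. The next members by p on the higher side were Mrpl1 at 0.36 (SE 0.22), the small-subunit protein Mrps23 at 0.08, Mrpl52 at 0.08 and Mrpl49 at 0.09.

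**Figure D1:**
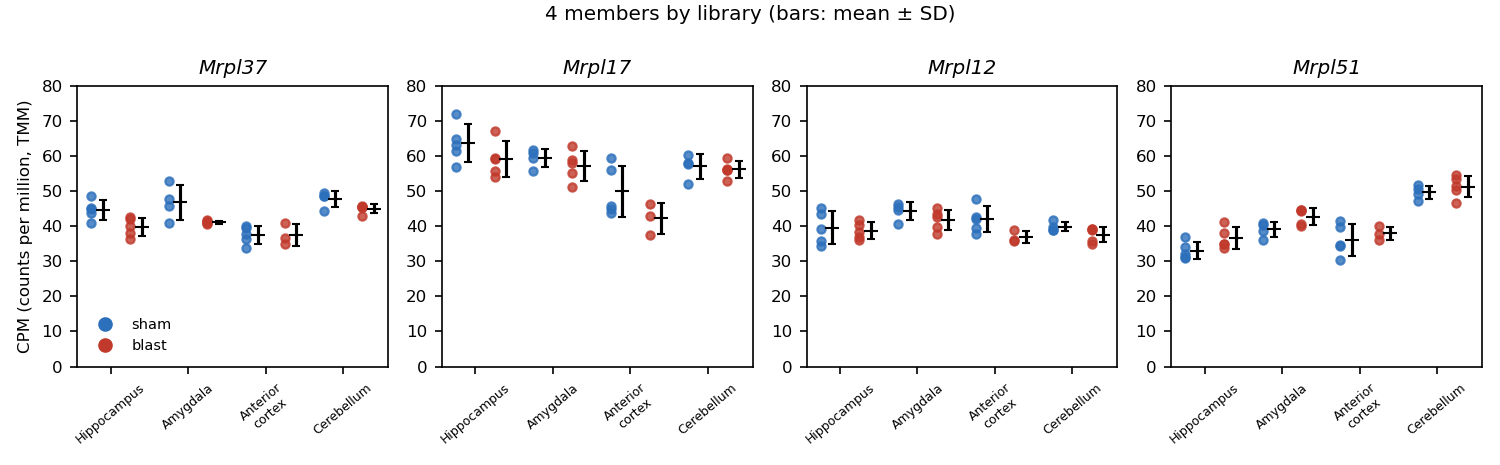
CPM of Mrpl37, Mrpl17, Mrpl12 and Mrpl51 (y axis) in each library, by region, with sham in blue, blast in red and bars for mean ± SD. Blast and sham points overlap in the regions shown for Mrpl37 and Mrpl51, and the widest gap of means for Mrpl17 is in anterior cortex.

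In anterior cortex most mitoribosomal genes lay slightly lower after blast, and none passed the threshold. Of the 73 members, 62 were lower and 11 higher, where 49.8% of all 15765 genes were lower, and the median log2 fold change was -0.12. edgeR's quasi-likelihood test called 0 members, against 1 gene or 0.00634% of all, and 7 members had an unadjusted p under 0.05, against 5.82% of all genes, all 7 of them lower. The members' summed level was 1669, 1452, 1551, 1729.95 and 1588 CPM in sham and 1429.5, 1437 and 1549 CPM in blast, so that blast library 6 lay among the sham libraries. The count at an unadjusted p under 0.05 was 2 without blast library 5, 3 without sham library 10, 4 without blast library 1 or sham library 16, and 13 without blast library 6 or sham library 12.

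The member of smallest p in this region was Mrpl28, the L28 counterpart. It stood at 27.7, 23.5, 26.1, 28.1 and 29.9 CPM in sham and at 18.3, 21.4 and 23.2 CPM in blast, so that the groups did not overlap, though the highest blast library lay just under the lowest sham one. The log2 fold change was -0.37 (SE 0.11; edgeR quasi-likelihood, adjusted p = 0.842). Mrps31, a small-subunit protein specific to mitochondria, had 19.1, 16.5, 17.5, 16.7 and 16.3 CPM in sham and 14.6, 14.6 and 14.8 CPM in blast, a log2 fold change of -0.23 (SE 0.10). Its 3 blast libraries lay close together below every sham library. Mrpl54 had a log2 fold change of -0.34 (SE 0.12) and Mrps21, the S21 counterpart, -0.28 (SE 0.11), both with overlapping groups. Groups did not overlap in 4 members, all lower (Mrpl28, Mrps31, Mrpl27 and Mrpl21), against 2.29% of all genes on the lower side. The members of smallest p the other way were Mrps23 at 0.18 (SE 0.11), Mrps22 at 0.08, Mrpl51 at 0.07 and Mrps35 at 0.07, of which the 3 Mrps names are small-subunit proteins specific to mitochondria.

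In cerebellum the picture was similar in direction and smaller. Here 58 members were lower and 15 higher, against 50% of all 15225 genes, with a median log2 fold change of -0.07. edgeR's quasi-likelihood test called 0 members, as it called 0% of all genes, and 6 members had an unadjusted p under 0.05, 5 of them lower, against 6.82% of all genes. Without blast library 9 the latter count was 11. Mrpl18, the L18 counterpart, stood at 23.3, 23.9, 24.99 and 21.9 CPM in sham and at 20.1, 20.2, 21.4, 20.8 and 18.5 CPM in blast. All its blast libraries lay below all its sham libraries, and the log2 fold change was -0.22 (SE 0.07; edgeR quasi-likelihood, adjusted p = 0.602). Mrpl15, the L15 counterpart, followed at -0.16 (SE 0.05), Mrps18a at -0.16 (SE 0.06) and Mrpl34, the L34 counterpart, at -0.22 (SE 0.10), with groups that overlapped. Groups did not overlap in Mrpl18 and Mrps12, counterpart of the bacterial decoding-site protein S12, which is 2 members against 1.14% of all genes on the lower side. Of the members that were higher, Mrpl1 was at 0.72 (SE 0.33), Mrpl2, the L2 counterpart, at 0.07, Mrpl51 at 0.05 and Mrpl38 at 0.04.

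In hippocampus more members lay higher than lower, by small amounts. There were 47 higher and 26 lower, against 50.6% of all 15349 genes higher, and the median log2 fold change was 0.03. Without sham library 16 the members were split evenly, with 37 higher and 36 lower. edgeR's quasi-likelihood test called 0 members and 0% of all genes, and 4 members had an unadjusted p under 0.05, against 5.24% of all genes. That count was 1 without blast library 2 and 2 without blast library 6 or sham library 10. Mrpl52, a large-subunit protein specific to mitochondria, had 23.6, 23.6, 22.4, 15.9 and 19.5 CPM in sham and 28.5, 23.5, 25.6, 34.8 and 24.4 CPM in blast, a log2 fold change of 0.38 (SE 0.13; edgeR quasi-likelihood, adjusted p = 0.816). The groups overlapped at their edges, and sham library 16 was the lowest. The highest was blast library 6, whose title carries an added mark, re, that no other title has. Mrps28 had 9.47, 9.58, 8.83, 6.42 and 9.05 CPM in sham and 10.4, 12.4, 10.96, 10.6 and 10.2 CPM in blast, a log2 fold change of 0.33 (SE 0.12). It was the only member whose groups did not overlap, against 0.534% of all genes on the higher side, and sham library 16 stood apart from the other 4. Without that library its log2 fold change was 0.24, and its span, introns included, overlaps LOC499573 on the other strand over 21904 bases. Mrps25, specific to mitochondria, was at 0.19 (SE 0.08) and Mrpl14, the L14 counterpart, at 0.25 (SE 0.12). On the lower side, after Mrpl37, stood Mrpl4 at -0.14 (SE 0.07), Mrps9, the S9 counterpart, at -0.10 and Mrpl17 at -0.11.

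In amygdala the members were split evenly. There were 35 higher and 38 lower, against 49% of all genes lower, with a median log2 fold change of -0.00, and edgeR's quasi-likelihood test called 0 members and 0% of the 15884 genes. Mrpl37 was the only member with an unadjusted p under 0.05, against 5.22% of all genes. That count was 0 without sham library 12 and 2 without blast library 2, 5 or 6. No member had groups that did not overlap, against 1.71% of all genes in either direction. Mrpl43 was at 0.14 (SE 0.08), Mrpl54 at 0.16 (SE 0.10) and Mrpl49 at 0.20 (SE 0.13), and on the other side Mrpl35, the L35 counterpart, was at -0.17 (SE 0.10), Mrpl47 at -0.19 (SE 0.14) and Mrpl44, which has a fold like that of ribonuclease III, at -0.15 (SE 0.11).

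**Figure D2:**
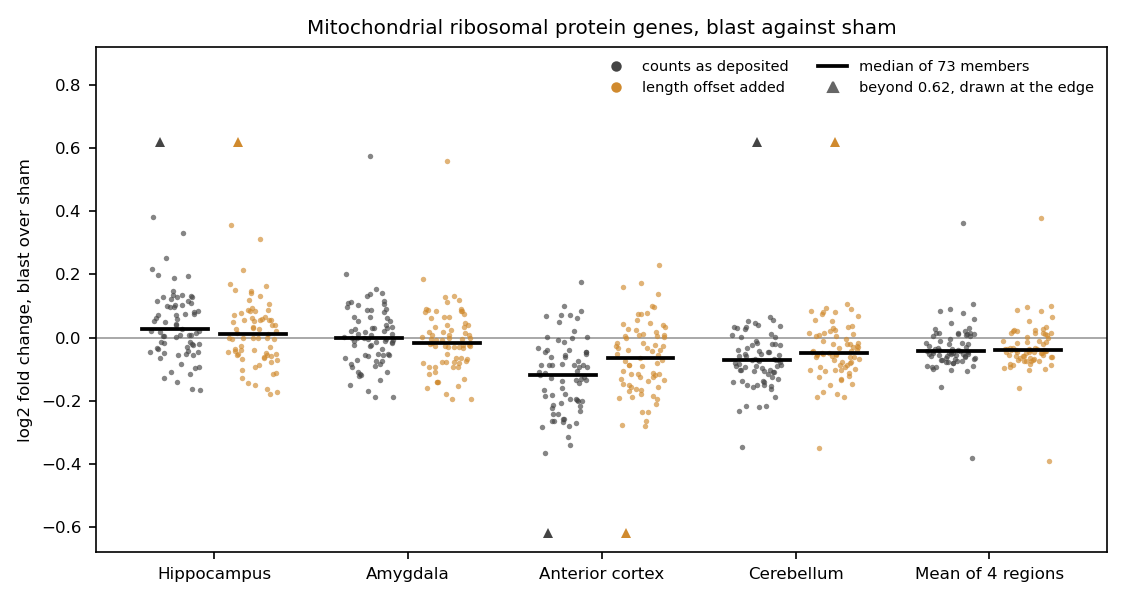
Log2 fold change of blast over sham (y axis) of each of the 73 tested members in the 4 regions and in their mean, from the counts as deposited (dark points) and with an offset for gene length (orange points); black bars are medians, and triangles are points beyond the axis limit. The median lies at -0.12 in anterior cortex and -0.07 in cerebellum, near 0 in hippocampus and amygdala, and moves to -0.06 and -0.05 in the former pair with the offset.

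A difference of the blast effect between regions was tested itself, as the 3 region by treatment terms. edgeR's quasi-likelihood test called 0 of 73 members, against 2 of 17120 genes or 0.0117%, and 6 members had an unadjusted p under 0.05, against 5.36% of all genes. The latter count was 1 with the length offset and ran from 2 without number 16 to 12 without number 12. The smallest was that of Mrpl28 (adjusted p = 0.629 by the same quasi-likelihood test), which stood at -0.37 in anterior cortex, -0.04 in cerebellum and 0.11 in both hippocampus and amygdala. Over the 73 members, 11 were lower in each of the 4 regions, 15.1%, against 8.40% of the other 14382 genes tested in all regions, and 3 were higher in each (Mrpl1, Mrpl51 and Mrps18b), 4.11% against 8.92%. The 11 were Mrpl10, Mrpl12, Mrpl17, Mrpl40, Mrpl42, Mrpl47, Mrpl55, Mrps2, Mrps9, Mrps14 and Mrps30, from both subunits.

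Subunits and classes were also summarised apart. In anterior cortex the median log2 fold change was -0.12 for 44 large-subunit names and -0.11 for 29 small-subunit names, and in cerebellum -0.07 and -0.09. In hippocampus these medians were 0.05 and 0.02. Members with a bacterial counterpart had medians of -0.14 in anterior cortex and -0.09 in cerebellum, with 40 and 37 of 43 lower. Members specific to mitochondria had medians of -0.09 and -0.07, with 21 and 20 of 29 lower. In hippocampus the classes had medians of 0.07 and 0.01, and in amygdala all 4 medians lay within 0.01 of 0. Differences between subunits or classes were not tested.

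Mitoribosomal genes are short, and in anterior cortex, more weakly in cerebellum, the difference between blast and sham varied with gene length over all genes. The deposited gene length had a median of 1149 bases over the 73 members, with quartiles of 809 and 1647, and of 2304 bases over all genes tested in anterior cortex, and 67 of 73 members were shorter than that. In anterior cortex the median log2 fold change of the other genes ran from -0.10 in the shortest of 10 length bins to 0.06 in the longest, with a Pearson r of 0.144 across 15692 genes, which are not independent replicates. In cerebellum it ran from -0.03 to 0.05 (r = 0.056). In hippocampus it ran the other way, from 0.06 to -0.02 (r = -0.018), and in amygdala from 0.02 to -0.02 (r = -0.022). Other genes between the members' length quartiles had a median of -0.05 in anterior cortex, with 61.6% lower, where 84.9% of members were lower. In cerebellum they had a median of -0.03 with 61.9% lower, where 79.5% of members were lower. Among the 73 members themselves, r was -0.04 in anterior cortex and -0.02 in cerebellum. Both values include Mrpl30 (2930 bases), which stood at -2.01 in anterior cortex and -0.35 in cerebellum. In anterior cortex the members' medians were -0.18, -0.14, -0.09, -0.15, -0.02 and -0.11 in length bins 1 to 6, shortest first. The corresponding medians in cerebellum were -0.07, -0.08, -0.08, -0.08, -0.10 and -0.02.

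With an offset that removed the smooth trend on gene length from each library, the members' medians in anterior cortex and cerebellum moved toward 0 and kept their sign. The median became -0.06 in anterior cortex, with 50 lower and 23 higher, and -0.05 in cerebellum, with 51 lower and 22 higher. In hippocampus it became 0.01, with 37 higher and 36 lower, and in amygdala -0.02. The mean of the 4 regions stayed at -0.04, with 53 members lower. No member was called in any region with the offset. Mrpl28 in anterior cortex moved from -0.37 to -0.28 and Mrpl27, counterpart of a protein near the bacterial peptidyl transferase centre, from -0.21 to -0.11, while Mrpl18 in cerebellum moved from -0.22 to -0.18.

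**Figure D3:**
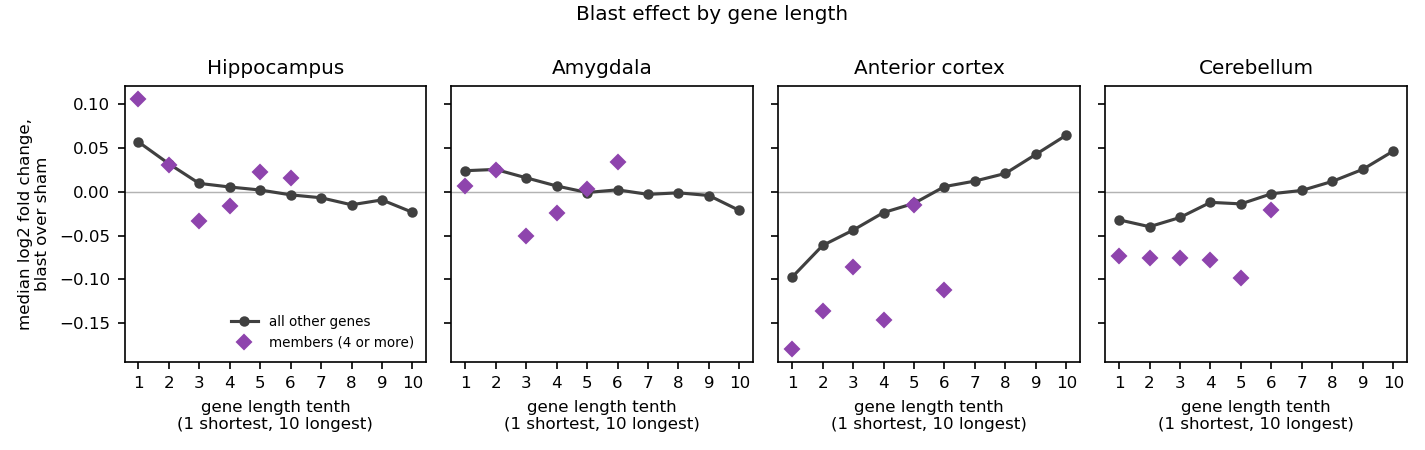
Median log2 fold change of blast over sham (y axis) in 10 equal bins of the tested genes by deposited gene length (x axis, shortest first), for all other genes (line) and for the members in bins that hold at least 4 of them (diamonds). In anterior cortex the line climbs from -0.10 to 0.06, and the members lie at or below it; in hippocampus it falls from 0.06 to -0.02.

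The members' levels also varied together between libraries of 1 group. A score was taken for each library as the mean log2 deviation of the 73 members from their regional means. In hippocampus the sham libraries alone spanned -0.21 (library 16, with 11 of 73 members above the regional mean) to 0.14 (library 12, with 62 of 73). In anterior cortex the sham scores ran from -0.06 to 0.19 and the blast scores were -0.15, -0.18 and 0.01, so blast library 6 lay within the sham range. The score is a mean that includes Mrpl30, which held 5 and 0 counts in blast libraries 1 and 5. The members' median deviations there were -0.11, -0.10 and 0.01 in blast libraries 1, 5 and 6, and -0.08 to 0.15 in sham. In cerebellum the sham scores ran from 0.01 to 0.06 and the blast scores from -0.09 to 0.04. The mean scores were 0.06 ± 0.10 (SD, n = 5) in sham and -0.10 ± 0.10 (SD, n = 3) in blast anterior cortex, and 0.04 ± 0.02 (SD, n = 4) and -0.03 ± 0.06 (SD, n = 5) in cerebellum. The score and the slope of all other genes on log2 length had opposite signs in 28 of the 36 libraries, 7 of 8 in anterior cortex and 8 of 10 in hippocampus. Points of a region share their regional mean, and score and slope share each library's depth and scaling.

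**Figure D4:**
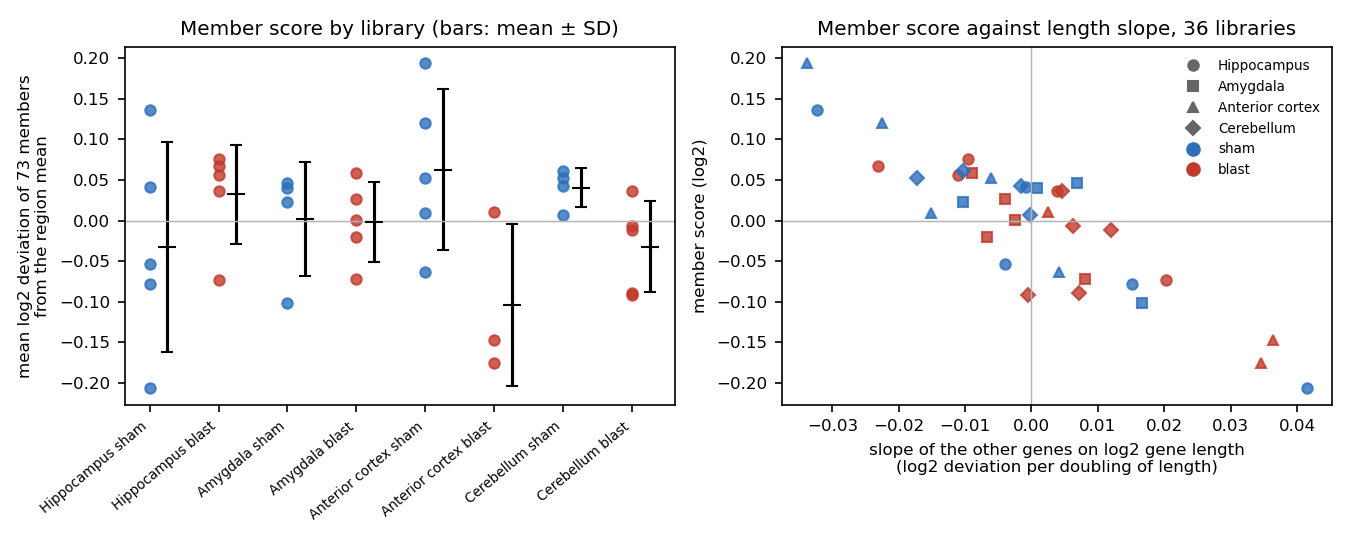
Left, the members' score (y axis, mean log2 deviation of the 73 members from the regional mean) of each library, by group, with bars for mean ± SD. Right, the same score against the slope of all other genes on log2 gene length (x axis), for the 36 libraries; the highest score, 0.19, goes with a negative slope and the lowest, -0.21, with the steepest positive one.

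The rest of the mitochondrial expression system was measured in the same fits, and no gene of the lists that follow was called in any region. In anterior cortex 76 of 95 cytosolic ribosomal protein genes were lower, and their median was -0.10. Of the 81 nuclear genes for oxidative phosphorylation, 77 were lower there, with a median of -0.20. In hippocampus the same lists lay higher, with medians of 0.20 and 0.09, and in cerebellum lower, with -0.07 and -0.14. With the length offset these medians were -0.02 and -0.12 in anterior cortex, 0.15 and 0.06 in hippocampus, and -0.03 and -0.09 in cerebellum. In anterior cortex, 18 of 23 genes for mitoribosome assembly and rRNA processing were lower with a median of -0.10, 14 of 19 translation factors with -0.03, and 7 of 16 mitochondrial aminoacyl-tRNA synthetases with 0.01. In cerebellum the corresponding counts were 12 of 23, 13 of 19 and 12 of 16, with medians of -0.01, -0.04 and -0.04.

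The genes of smallest p in these lists had these differences in the mean of the 4 regions, none past the threshold. Slirp, which stabilizes mitochondrial messages with Lrpprc, had a log2 fold change of -0.16 (SE 0.06), and Oxa1l, which inserts new proteins into the inner membrane, -0.07 (SE 0.03). Rcc1l, an assembly factor of the mitoribosome, stood at -0.10 (SE 0.04) and the rRNA methyltransferase Mrm2 at 0.19 (SE 0.08). Of the synthetases, Pars2 was at -0.16 (SE 0.07). Ptcd3 and Chchd1, small-subunit proteins named outside the rule, were at 0.03 (SE 0.03) and -0.07 (SE 0.05). Tfb2m, the mitochondrial transcription factor, was at -0.08 (SE 0.06), Ssbp1, which binds single-stranded mitochondrial DNA, at -0.10 (SE 0.08), Pprc1, a coactivator of mitochondrial genes, at -0.08 (SE 0.04) and the nuclear receptor Esrra at -0.07 (SE 0.04). The import chaperone Hspa9 was at 0.05 (SE 0.02) and the outer membrane channel Vdac2 at -0.05 (SE 0.03). Sdhb and Uqcrb, subunits of respiratory complexes, were at -0.09 (SE 0.03) and -0.22 (SE 0.08), and Rps16 and Rpl22l1 of the cytosolic ribosome at 0.15 (SE 0.05) and -0.20 (SE 0.07). Of the lower-case names, mrpl9 was at -0.10 (SE 0.04) and mrpl11 at 0.05 (SE 0.04).

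Markers of cell types differed between the groups too, none past the threshold, and their part in the members' values was not tested. Of 10 neuronal markers, 9 were lower after blast in hippocampus, amygdala and anterior cortex, with medians of -0.16, -0.12 and -0.15, and 8 in cerebellum, with a median of -0.05. No neuronal marker was at 0 in any library, and their summed level overlapped between groups. It was 4179 to 4855 CPM in blast and 4599 to 6006 CPM in sham anterior cortex, and 5278 to 5788 CPM and 5574 to 5874 CPM in cerebellum. All 8 oligodendrocyte markers were higher in hippocampus, with a summed level of 8591 to 23345 CPM in blast and 7015 to 9915 CPM in sham. The means were 12034 ± 6346 CPM and 8774 ± 1152 CPM (SD, n = 5 each), so the sums overlapped and were uneven in blast. They overlapped in the other regions too. In blast and sham these were 3181 to 7007 and 3217 to 4122 CPM in amygdala, 6994 to 8824 and 6088 to 9277 CPM in anterior cortex. Cerebellum held 7111 to 8659 and 7831 to 8385 CPM. All 9 microglial markers were higher in hippocampus and amygdala, with medians of 0.20 and 0.16, and 5 and 6 of the 9 in anterior cortex and cerebellum. The choroid plexus list was higher in its 9 tested genes in hippocampus and amygdala and lower in its 11 tested genes in cerebellum. It summed to 8.07 to 9016 CPM in blast and 13.2 to 537 CPM in sham hippocampus. In cerebellum the sums were 32.9 to 2099 CPM and 38.7 to 3019 CPM, and in both regions they were uneven between libraries of either group. Blast amygdala was uneven too, at 12.7 to 2058 CPM with a mean of 427 ± 911 CPM (SD, n = 5). Sham amygdala held 11.9 to 27.7 CPM. In anterior cortex it stood at 8.23 to 11.6 CPM in blast and 6.27 to 11.5 CPM in sham, with up to 2 of its 11 listed genes at 0 in a library.

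Sham cerebellum was compared with the mean of sham hippocampus, amygdala and anterior cortex, and edgeR's quasi-likelihood test called 38 of 73 members, 20 higher and 18 lower in cerebellum. Of all 16381 genes, 69.9% were called, 34.8% higher and 35.1% lower. Differences beyond 0.5 on the log2 scale were found in 5 members, where the median absolute log2 fold change of all genes was 0.49. With the length offset 39 members were called, 26 higher and 13 lower, where 70.4% of all genes were called. How those divide by direction is not given. The median log2 fold change moved from -0.01 to 0.02 for all genes and from -0.01 to 0.07 for the members. Called with and without the offset were 33 members.

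Mrps5, the S5 counterpart of the small subunit, had the largest difference. It stood at 46.6, 46.5, 49.6 and 49.9 CPM in sham cerebellum, at 30.8 to 39.2 CPM in the 5 hippocampal libraries, at 28.3 to 31.6 CPM in the 4 of amygdala and at 26.3 to 32.9 CPM in the 5 of anterior cortex. The cerebellar libraries lay above all others, and the log2 fold change was 0.62 (SE 0.06; edgeR quasi-likelihood, adjusted p = 1.19e-08). Mrpl39, a large-subunit protein specific to mitochondria, was higher by 0.53 (SE 0.08), with 14.1, 13.8, 16.6 and 15.1 CPM in cerebellum and at most 13.2 CPM elsewhere. Mrps31 was higher by 0.46 (SE 0.09) and Mrpl2 by 0.44 (SE 0.10). Groups did not overlap in 9 members that were higher, among them Mrpl15, Mrpl38, Mrpl40, Mrpl45 and Mrpl58, the peptidyl-tRNA hydrolase of the large subunit, against 20.1% of all genes. On the lower side they did not overlap in Mrps33 and Mrpl13, against 17.9%.

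The largest differences the other way were in Mrpl54, Mrpl33, Mrps33 and Mrpl23. Mrpl54 stood at 23.5, 21.3, 23.02 and 17.5 CPM in sham cerebellum and was highest in anterior cortex, at 30.2 to 45.7 CPM. Its log2 fold change was -0.56 (SE 0.10; edgeR quasi-likelihood, adjusted p = 8.32e-05), and the lowest hippocampal library, at 23.4 CPM, overlapped the cerebellar ones. Mrps33, specific to mitochondria, was steady in cerebellum at 14.99, 15.2, 15.4 and 15.1 CPM, below every forebrain library, with a log2 fold change of -0.51 (SE 0.10). Mrpl33 was at -0.54 (SE 0.11) and Mrpl23, counterpart of a protein at the bacterial exit tunnel, at -0.43 (SE 0.14).

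The calls were divided by gene length, where 34.8% of all genes were called higher and 35.1% lower. Of the 37 members at or above the members' median length, 14 were called higher and 6 lower, and of the 36 shorter ones 6 were higher and 12 lower. Across the 73 members, log2 fold change and log2 length had a Pearson r of 0.488, where the other 16308 genes had 0.012. Members share each library's depth and scaling, and no test is given for this relation. By class, 12 of 29 members specific to mitochondria were called higher and 5 lower, and of 43 with a bacterial counterpart 8 were higher and 13 lower. The classes also differ in length, with medians of 1288 and 997 bases, and class and length were not told apart. The corresponding lists gave 9 higher and 44 lower of 96 cytosolic ribosomal protein genes, 22 higher and 13 lower of 81 oxidative phosphorylation genes, and 8 higher and 0 lower of 19 mitochondrial translation factors.

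**Figure D5:**
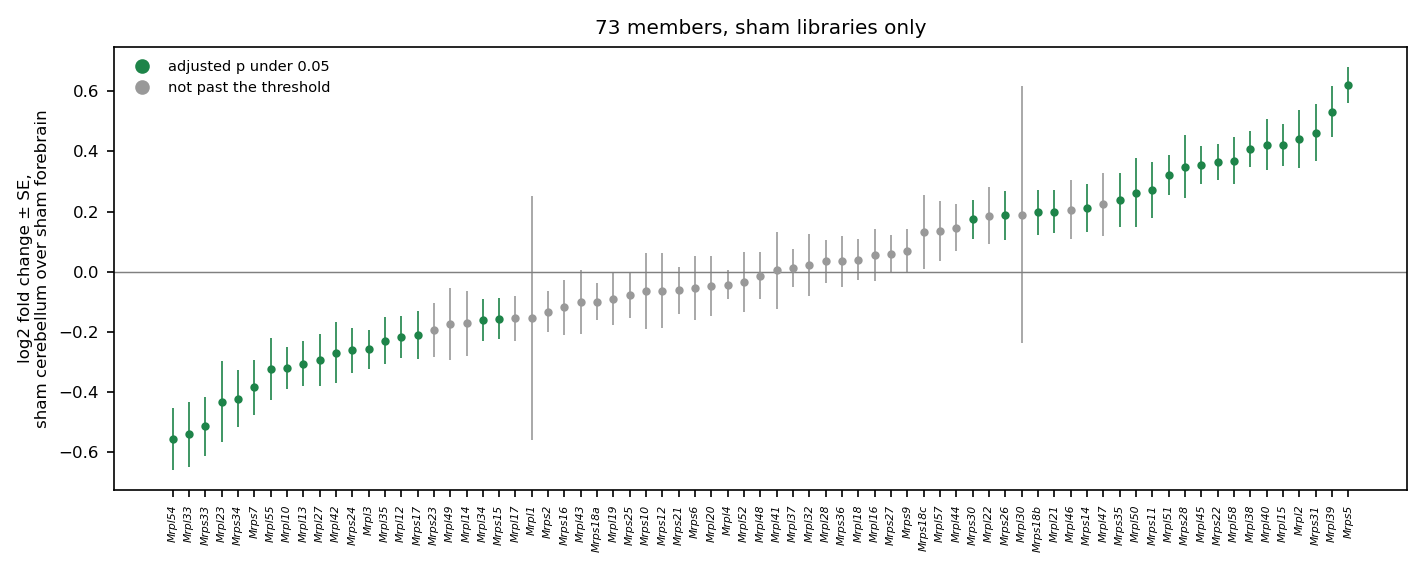
Log2 fold change ± SE of sham cerebellum over the mean of the 3 sham forebrain regions (y axis) for the 73 members, in order of size (x axis); green points passed an adjusted p of 0.05. Mrps5 at 0.62 and Mrpl54 at -0.56 end the range, and the wide bars belong to Mrpl1 and Mrpl30.

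Mrpl30, the L30 counterpart (chr9:44483875-44571331), behaved unlike the rest; it is named here after its values were seen. In anterior cortex it had 6.03, 12.01, 3.30, 8.68 and 7.28 CPM in sham and 0.284, 0 and 5.12 CPM in blast, a log2 fold change of -2.01 (SE 0.85; edgeR quasi-likelihood, adjusted p = 0.842). The library at 0 held 0 counts, and 3 counts would be 0.179 CPM there without TMM scaling. Near-empty libraries occurred in other groups as well, with 3 counts in hippocampus sham library 10, 7 in amygdala blast library 5 and 3 in cerebellum blast library 6, beside 5 in anterior cortex blast library 1. The span of Mrpl30 from start to end, introns included, overlaps Mitd1 on the other strand over 76963 bases. Overlap of exons was not measured. No source used here says whether counting used the strand, so reads of the pair could be split either way wherever exons overlap.

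The same limit may hold for 12 members in all whose spans, introns included, overlap a gene on the other strand. They are Mrpl13, Mrpl21, Mrpl30, Mrpl43, Mrpl47, Mrpl49, Mrpl57, Mrps2, Mrps7, Mrps9, Mrps18a and Mrps28, with overlaps from 48 bases (Mrpl43 with Twnk, the mitochondrial DNA helicase) to that of Mrpl30. A start within 500 bases of a neighbour's start on the opposite strand was found in 18 members. Neither count was made over all genes, so neither is given as a trait of the members. One such pair lies within the family: Mrpl46 and Mrps11 start 72 bases apart in the deposited coordinates and 234 bases apart by RefSeq (GRCr8). The mitochondrial neighbours of others include Twnk beside Mrpl43, Ndufb5 beside Mrpl47 and Sars2, the mitochondrial seryl-tRNA synthetase, beside Mrps12.

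The authors' deposited table gave no member an adjusted p under 0.05 in any region, where it gave one to 0.346% of all genes with a value in cerebellum, 0.0713% in amygdala, 0.0128% in anterior cortex and 0% in hippocampus. It holds no adjusted p for some members: 65 of 75 had a value in cerebellum and 72 of 74 in amygdala. The smallest values for members in the authors' deposited table were 0.341 in cerebellum, 0.800 in amygdala, 0.983 in hippocampus and 0.995 in anterior cortex.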

How the data were processed

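Total RNA (Qiazol, RNeasy) went into NEBNext Ultra libraries, per the labels. Of tools, the submitters' processing notes give CASAVA. Aligner, counter, strand setting and annotation were not given in the sources used here, and the build of the coordinates is not named. Per the file headers, each region's deposited table holds whole read counts and FPKM values of every library. Gene length in bases was deposited too, and the deposited FPKM used a shorter length for 19 members. The deposited log2 fold changes and p-values are the authors' own and are quoted where named. A further 36 columns of values normalized by the authors were not used.

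Counts were tested with R 4.3.3 and edgeR 4.0.16: filterByExpr, TMM scaling, glmQLFit and glmQLFTest, with Benjamini-Hochberg adjustment over all genes tested and a threshold of 0.05. DESeq2 1.42.0 and limma 3.58.1 served for alternatives. The length offset is a lowess of log2 CPM deviations (prior count 2) on log2 gene length, with a span of 0.4. The steps were tested on simulated counts with changes much larger than the members' median differences. That test does not show whether differences as small as those would be found. Depth was 15426786 to 23460322 counts per library.

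Members were named by a rule: in each direction the 4 of smallest p in each region, the 5 in the mean of regions and the 4 called of largest log2 fold change between sham regions; further the 4 of highest and lowest FPKM and, of other mitochondrial lists, the 2 of smallest p. One gene under the last rule is not reported here. Mrpl30, and members named only because their groups do not overlap or for their position or class, were added after their values were seen. The members, lists and motifs were chosen with earlier results of these data known.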

Additional observations from a re-analysis of the deposited data

Results flagged for a closer look

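Mrps28 in hippocampus stood at 6.42 CPM in sham library 16, where the other 4 sham libraries held 8.83 to 9.58 CPM, a gap that was large for a group of 5. The same test was made on 63 groups of members, and chance gives about 1 such gap in 20 groups. The same library had the lowest score of the 73 members, -0.21.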

How the results depend on the processing

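In the 4 regions no member was called between blast and sham by DESeq2, with DESeq2's size factors, without the filter on low counts, with the length offset, with an offset on the length that the FPKM values imply (chosen after seeing the data) or without any 1 library. For the mean of regions and the region by treatment terms the same held, except that the offset on implied length was not run and that whole numbers, in up to 4 regions, were left out instead of 1 library. Of all genes, DESeq2 called 0% in hippocampus, 0.063% in amygdala, 0.0571% in anterior cortex, 0.269% in cerebellum and 0.0234% for the region by treatment terms. The members' median log2 fold change without 1 library ran from -0.151 to -0.0885 in anterior cortex, from -0.0850 to -0.0484 in cerebellum, from 0.00298 to 0.0758 in hippocampus and from -0.0347 to 0.0145 in amygdala, where its sign is not settled. In hippocampus the lowest value came without sham library 16 and the highest without sham library 12. Between sham regions 28 to 37 members were called without 1 number, where 63.9% to 68.9% of all genes were, 39 with DESeq2 (70.3%) and 34 without the filter (56.2%). No paired analysis was possible within a region because blast and sham libraries share no number. Across regions, same-numbered libraries had deviations with a median r of 0.087 over 48 pairs, 17 of them over 0.1, and libraries of other numbers a median of -0.022 over 193 pairs, 13 of them over 0.1. Same-numbered libraries were thus more alike on the whole. The labels name no animal, and the main fits did not pair libraries by number. Libraries that may share an animal therefore entered the fits across regions as independent. With the number as a replicate block, 0 members were called for the mean of regions, against 0.0467% of all genes. For the region by treatment terms 0 members and 0% of all genes were called, and 33 members between sham regions (69.4% of all genes). Groups of 3 to 5 libraries limit the blast comparisons: the median SE of a member's log2 fold change was 0.12 in anterior cortex and 0.08 in cerebellum.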
